A study of Homo sapiens with 65 samples.

Results

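The step from day 1.5 to day 2.5 of left-ventricular cardioid differentiation was measured in wild-type (WT) cells by 3′ RNA-seq. Cardioids are heart-like aggregates that pluripotent stem cells form in culture, here cells of the human induced pluripotent line WTC-11. The libraries were chosen from their titles as all WT libraries of the genotype arm at these days, 5 at day 1.5 and 6 at day 2.5, which is 11 of the 65 libraries of the series. The rest of the series holds WT libraries of later days, clones labelled HAS2 knockout (KO), and an enzyme arm of untreated and hyaluronidase-treated cardioids. The untreated libraries of the enzyme arm carry the names TNNI1, WT and TNNT2 in their titles. Each library came from 8 pooled cardioids, per the labels. The WT libraries carry the line names WT, WT_TU, cl43_WT_UT and TNT2. All carry the genotype label WT and the cell type label cardiac progenitor. 5 library names occur at both days (WT_R1, WT_TU_R1, WT_R2, cl43_WT_UT and TNT2), and WT_TU_R2 was analysed at day 2.5 only. Values of single day 1.5 libraries are given below in the order WT_R1, WT_TU_R1, WT_R2, cl43_WT_UT and TNT2.

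Per the labels, cells were held until day 1.5 as a monolayer in a mesoderm induction medium with FGF2-G3, Activin A, BMP4, the GSK3 inhibitor CHIR99021 and the PI3K inhibitor LY294002. At day 1.5 they were dissociated with TrypLE and reseeded into ultra-low attachment wells, with a ROCK inhibitor, in a first patterning medium that held BMP4, FGF2-G3, insulin, retinoic acid and the porcupine inhibitor C59, which blocks WNT secretion. The labels do not state whether the day 1.5 libraries were taken before or after reseeding. Time, the change from monolayer to aggregate, the ROCK inhibitor and the change of signals fall together in this step and cannot be told apart. In bulk samples, fewer cells of a type and less RNA per cell also cannot be told apart.

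Mesoderm arises in the embryo from the primitive streak, where WNT, NODAL and BMP signals switch on the transcription factors TBXT, EOMES and MIXL1. Cells that leave the streak lose these factors, and the precardiac mesoderm among them switches on GATA, TBX, HAND and MEF2 family factors before it makes contractile protein. Retinoic acid marks the posterior heart field and activates anterior HOX genes. Hyaluronan, made by HAS2, is a main component of the matrix of the early heart.

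Total counts ranged from 1915170 to 3574843 at day 1.5 and from 1401841 to 3241683 at day 2.5. Library numbers fall into 3 blocks, called A (WT_R1 and WT_TU_R1), B (WT_R2 and WT_TU_R2) and C (cl43_WT_UT and TNT2). The 4 block A libraries stood apart from the others on both days. The first principal component of log2 CPM (42.7% of the variance) separated the days, and the second (33.9%) separated block A from the rest. Mitochondrial genes gave 0.0849% to 0.143% of counts in block A and 0.261% to 0.530% elsewhere. The part of these blocks in the results was not tested as a cause. For many genes the day 1.5 values are given singly, and the step was also computed without block A. Day 2.5 values are mostly given as lowest, median and highest, and some genes as mean and SD, which do not show the blocks. Both days hold libraries of every block.

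Of 13797 genes tested, 4153 (30.1%) passed edgeR's quasi-likelihood test at an adjusted p under 0.05. Of these, 2071 (15.0% of genes tested) were higher and 2082 (15.1%) lower at day 2.5, and 1562 rose and 1136 fell by at least 1 on the log2 scale. The shares of 15.0% and 15.1% are the background for every list count below. In 2232 genes (16.2%) the 11 libraries did not overlap between the days. Scaling by library totals alone, in place of TMM factors, moved the median log2 fold change of all genes from 0.01 to 0.22 and the called split to 2861 higher and 1378 lower. All fold changes below are relative to the TMM scaling. Where a gene had at most 3 counts in every library of a day, which is called the floor, its fold is given as a lower bound. Such a gene passed the filter on low counts only through groups where it is higher. Counts and medians of lists that hold such genes are therefore descriptions. The labels do not say whether libraries of a line came from separate cultures. P-values rest on a spread estimated over all 41 genotype-arm libraries, KO clones and later days included, and this spread may be partly technical. With the compared groups alone 2736 genes were called. Without block A 4512 genes were called, of which 3376 were among the 4153. At both days the most abundant genes were mostly of the translation machinery. RPS27A, a ribosomal protein fused to ubiquitin, led at day 1.5 with 7443 ± 1824 CPM (SD, n = 5), and the nuclear non-coding RNA MALAT1 led at day 2.5 with 11032 ± 1891 CPM (SD, n = 6).

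**Figure D1:**
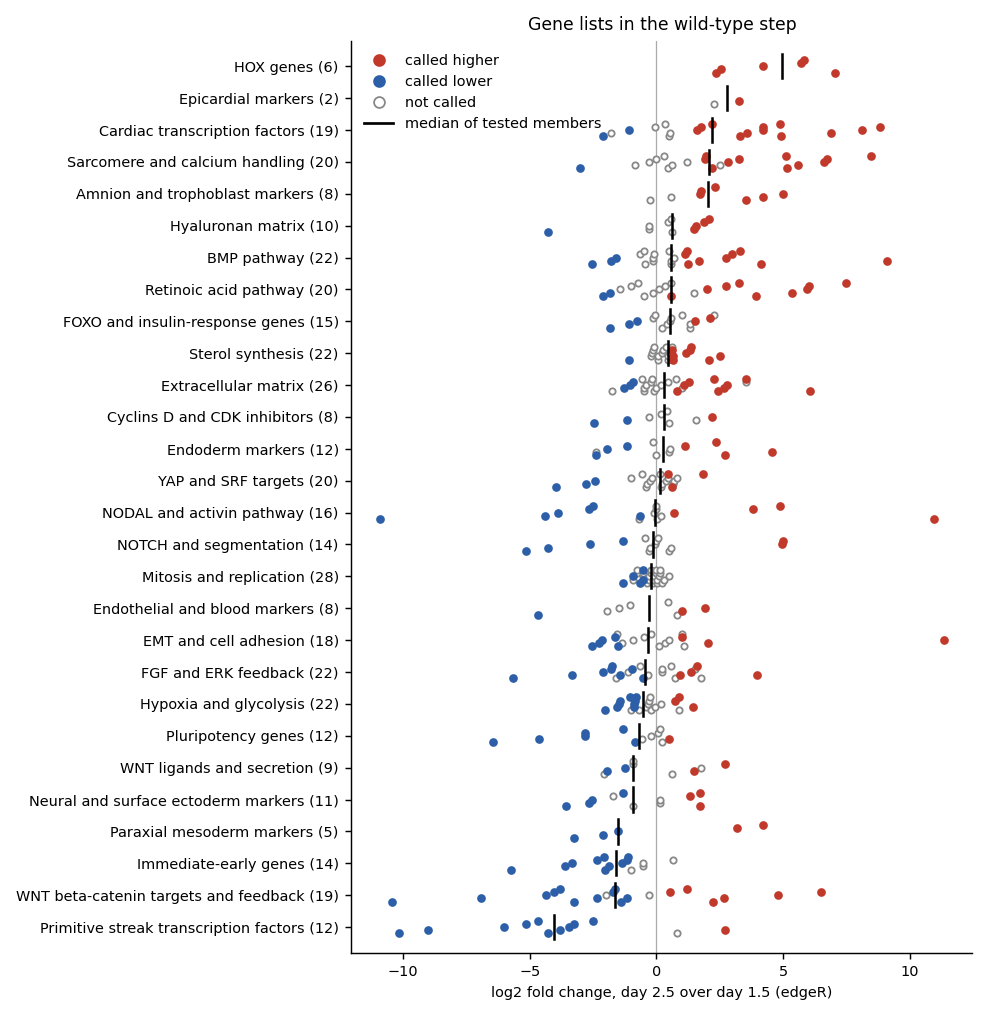
Log2 fold change of the step (horizontal axis, edgeR, day 2.5 over day 1.5) for each tested member of 28 gene lists, ordered by median, with the number of tested members in brackets. Filled points passed an adjusted p under 0.05 (red higher, blue lower), open points did not, and black bars are medians of the fitted values. HOX genes, with a median of 4.95, lie farthest to the right and primitive streak factors, with a median of −4.04, farthest to the left.

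Sequences around the start sites of 5 genes are shown because the step changed the signals that are known to act through them. RARB and CYP26A1 carry a direct repeat of the retinoic acid receptor half-site (AGGTCA, or with other letters AGTTCA, or further GGGTCA, or further GGTTCA, as 2 copies 5 bases apart). SP5, TBXT and MIXL1 carry the TCF/LEF letters CTTTGAT, or with another last letter CTTTGAA, through which WNT signals are read, and SP5 and MIXL1 also carry TGTGGATT, a sequence bound by FOXH1, the partner of SMAD proteins in NODAL signalling. Both strands were searched. Each window runs 5′ to 3′ along the gene over 300 bases, from 250 before to 50 after the start, from RefSeq on GRCh38.p14, and capitals mark the matches. The windows are chr3:25428013-25428312 (+) for RARB, chr10:93073643-93073942 (+) for CYP26A1, chr2:170715087-170715386 (+) for SP5, chr6:166167802-166168101 (−) for TBXT and chr1:226223414-226223713 (+) for MIXL1. Of the 4 RARB, 2 CYP26A1 and 2 TBXT windows available, the shown one was picked because it holds a match. For RARB 2 windows hold a match to a searched sequence, and the first of them is shown. 3′ reads do not tell which start site was used.
RARB: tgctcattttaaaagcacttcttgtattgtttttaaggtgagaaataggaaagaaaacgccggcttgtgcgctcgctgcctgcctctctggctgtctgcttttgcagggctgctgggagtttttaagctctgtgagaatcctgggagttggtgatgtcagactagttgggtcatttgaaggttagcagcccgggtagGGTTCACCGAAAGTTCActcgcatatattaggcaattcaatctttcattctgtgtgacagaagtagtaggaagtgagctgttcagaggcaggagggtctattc
CYP26A1: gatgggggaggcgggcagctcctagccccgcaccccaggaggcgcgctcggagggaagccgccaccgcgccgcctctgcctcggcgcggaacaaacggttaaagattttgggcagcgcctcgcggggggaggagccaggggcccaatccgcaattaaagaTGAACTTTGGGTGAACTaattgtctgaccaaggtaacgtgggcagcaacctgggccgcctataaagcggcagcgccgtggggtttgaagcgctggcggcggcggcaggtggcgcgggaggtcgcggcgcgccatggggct
SP5: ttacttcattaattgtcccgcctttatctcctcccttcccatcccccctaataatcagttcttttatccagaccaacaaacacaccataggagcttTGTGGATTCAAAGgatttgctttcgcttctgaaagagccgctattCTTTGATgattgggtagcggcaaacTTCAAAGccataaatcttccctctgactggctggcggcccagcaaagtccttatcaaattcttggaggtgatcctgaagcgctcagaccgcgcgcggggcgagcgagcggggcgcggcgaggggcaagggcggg
TBXT: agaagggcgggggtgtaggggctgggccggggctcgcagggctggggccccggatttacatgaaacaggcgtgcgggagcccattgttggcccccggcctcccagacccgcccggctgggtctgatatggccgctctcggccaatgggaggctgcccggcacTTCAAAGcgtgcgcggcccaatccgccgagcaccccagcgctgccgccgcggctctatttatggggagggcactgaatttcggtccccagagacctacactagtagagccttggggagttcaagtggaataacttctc
MIXL1: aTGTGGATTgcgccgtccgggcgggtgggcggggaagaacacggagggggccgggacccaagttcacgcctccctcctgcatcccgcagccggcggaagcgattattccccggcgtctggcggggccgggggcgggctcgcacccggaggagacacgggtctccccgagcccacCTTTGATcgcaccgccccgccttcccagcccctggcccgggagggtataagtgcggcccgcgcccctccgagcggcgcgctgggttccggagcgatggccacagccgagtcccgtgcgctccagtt
The match of RARB lies 53 to 37 bases and that of CYP26A1, on the other strand, 90 to 74 bases before the start. In SP5 the TGTGGATT match overlaps a TCF/LEF match on the other strand. Among all 35116 windows of this length, 31 (0.0883%) hold the direct repeat, 2409 (6.86%) a TCF/LEF match and 287 (0.817%) TGTGGATT. Of the 11 tested genes with the repeat 2 were called higher and 2 lower, RARB and CYP26A1 among them, one in each direction. Of the 609 tested genes with a TCF/LEF match, 17.6% were called higher and 15.1% lower, against 14.6% and 15.8% of the 10337 tested genes with a window. A match is a description of these letters and not a site in use.

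Most transcription factors of the primitive streak fell. Of 12 tested members of 16, 10 were called lower and 1 higher, with a median log2 fold change of −4.04 against 0.01 over all genes. TBXT (ENSG00000164458, chromosome 6, 166157656 to 166168700), the brachyury factor, had 83.1, 40.9, 58.0, 98.9 and 56.8 CPM in the 5 day 1.5 libraries. Not a single TBXT read was counted in any of the 6 day 2.5 libraries, which makes the fall at least 43.7-fold against a floor of 3 counts per library (edgeR adjusted p 1.07e-09). MIXL1, a homeobox factor of the streak, was far more abundant at 1308, 1624, 1536, 1403 and 1934 CPM and left 0.510, 3.68 and 5.14 CPM (lowest, median and highest) at day 2.5. The 2 days stood apart in every library, and the log2 fold change was −9.01 ± 0.41 (SE, edgeR adjusted p 3.84e-20). EOMES, the T-box factor that opens mesoderm and endoderm genes, fell from 1756, 2065, 1180.1, 1237 and 1385 CPM to 47.4, 67.8 and 92.2 CPM. The log2 fold change of EOMES was −4.70 ± 0.47 (SE, edgeR adjusted p 1.7e-10), and every day 2.5 library still held EOMES reads. GSC, the organizer factor goosecoid, fell by 6.01 on the log2 scale, and MESP1, which opens the cardiac programme in early mesoderm, by 5.13. The fall of MESP2, its neighbour on chromosome 15, was 4.27, and that of the posterior factor EVX1 was 3.44 (edgeR adjusted p 1.32e-08 to 7.56e-12 over these 4 genes). LHX1 fell least of those named. It had 2842, 2606, 2692, 2206 and 2715 CPM at day 1.5 and 456, 512 and 693 CPM at day 2.5, and its 3 untreated day 2.5 libraries of the enzyme arm held 789.7 to 1142 CPM. FOXA2, a factor of the anterior streak and the endoderm, was the member called higher, from 2.24, 0, 5.22, 0 and 0.517 CPM to 1.02, 9.69 and 24.4 CPM (log2 fold change 2.70 ± 0.80 SE, edgeR adjusted p 0.00873). Its libraries overlapped, and without block A the edgeR adjusted p was 0.0816, the largest over its alternatives, which began at 0.00273.

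**Figure D2:**
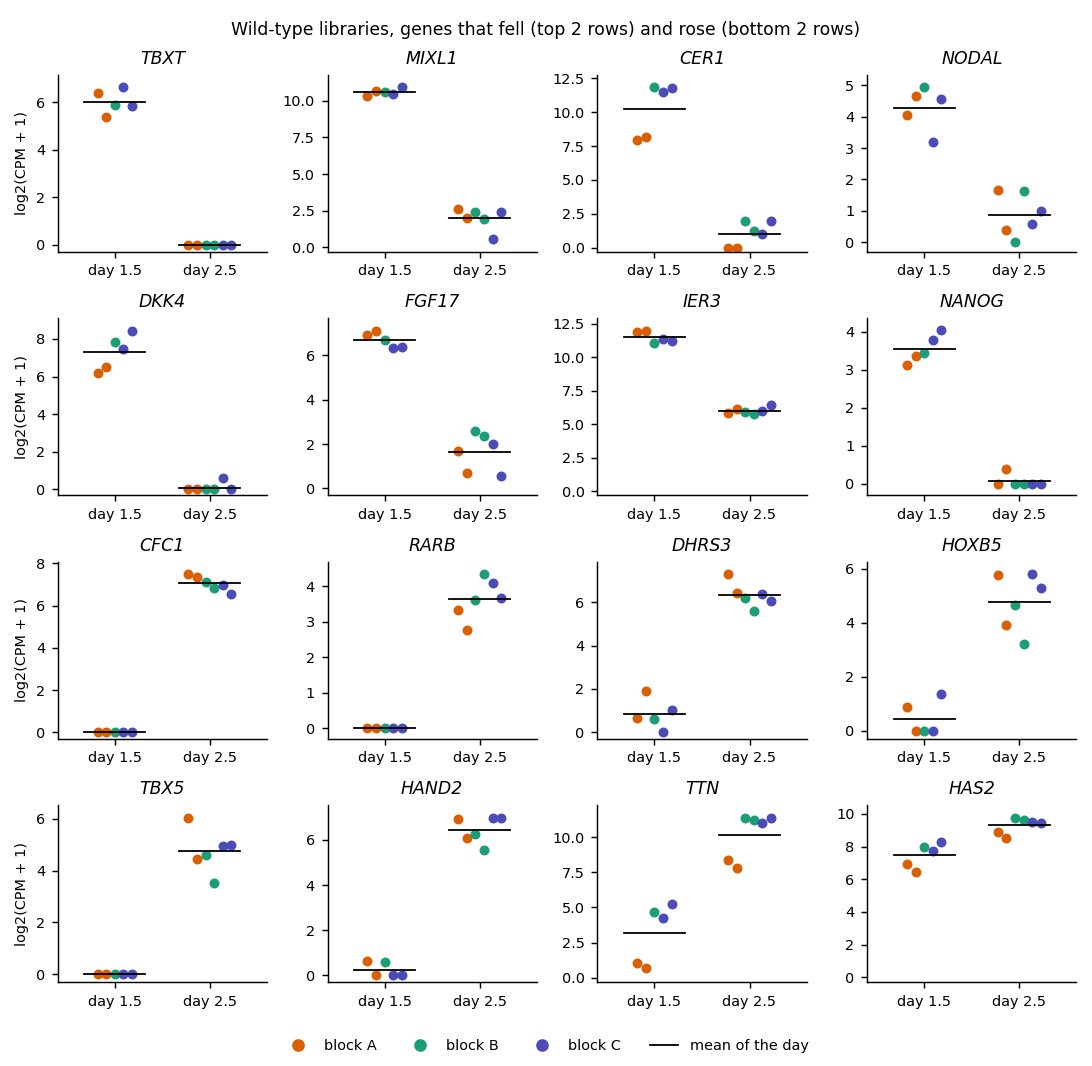
Log2(CPM + 1) of 16 genes in the 5 WT libraries of day 1.5 and the 6 of day 2.5, 1 point per library coloured by block of library numbers, with the mean of each day as a bar. In all 16 panels the libraries of the days do not overlap, and in CER1, TTN and HAS2 the block A points lie below the others of their day.

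Genes of the NODAL pathway split in both directions. NODAL is a ligand of the TGF-beta family that is read through a co-receptor of the EGF-CFC family, and Activin A, added until day 1.5, uses the same receptors without it. Of 16 tested members of 21, 4 were called higher and 6 lower (median −0.06). The ligand NODAL fell from 15.7, 24.1, 29.8, 8.2 and 22.7 CPM to 0, 0.747 and 2.20 CPM (log2 fold change −4.41 ± 0.60 SE, edgeR adjusted p 6.31e-07). The co-receptor TDGF1 (CRIPTO) had 176, 271, 244, 90.2 and 118 CPM at day 1.5 and 6.61, 15.8 and 20.1 CPM at day 2.5. Its log2 fold change was −3.87 ± 0.39 (SE, edgeR adjusted p 2.5e-10), and it overlaps other annotated genes on both strands. The second co-receptor, CFC1 (CRYPTIC), moved the other way, from no count in any day 1.5 library to 91.4, 133 and 179 CPM. That is at least 106-fold, although reads of its near-identical copy CFC1B cannot be told apart from its own. In the 3 untreated day 2.5 libraries of the enzyme arm CFC1 was lower, at 15.1 to 56.2 CPM. Antagonists split too. CER1, a secreted antagonist that dominated the list at day 1.5, had 250.4, 281, 3671, 2892 and 3623 CPM, with both block A libraries about an order of magnitude below the rest, and 0, 1.21 and 2.95 CPM at day 2.5. LEFTY2, an antagonist that NODAL itself is known to induce, rose from 3.08, 1.20, 3.66, 6.15 and 0 CPM to 14.3, 35.7 and 114 CPM (log2 fold change 3.81 ± 0.55 SE, edgeR adjusted p 8.11e-07). WT_TU_R1 was the highest of its day, and the value without block A was 2.93 (edgeR adjusted p 0.000302, range over its alternatives 3.7e-11 to 0.0393). The 3 untreated day 2.5 libraries had 5.37 to 11.2 CPM of LEFTY2, below all 6 WT libraries of that day and overlapping the day 1.5 range. FST, which binds activin, fell by 2.66 (edgeR adjusted p 1.49e-07). FOXH1 rose by 0.68 (edgeR adjusted p 0.0134), a call that was lost without block A (edgeR adjusted p 0.0617, range over its alternatives 0.00126 to 1.00) and without WT_TU_R1 at day 1.5. INHBA, the activin A subunit, had no count at day 1.5 and 1.1, 1.77 and 3.57 CPM at day 2.5, close to the floor.

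Targets and feedback genes of WNT signalling through beta-catenin were mostly lower at day 2.5. Of 19 tested members of 23, 11 were called lower and 6 higher (median −1.64). DKK1 and DKK4 are secreted WNT antagonists that the pathway itself induces. DKK4 had 73.0, 88.8, 229.7, 176 and 346 CPM at day 1.5, and 1 read in total was counted at day 2.5. DKK1 fell from 99.0, 147, 80.9, 47.7 and 80.1 CPM to 0, 0.698 and 2.46 CPM (log2 fold change −6.93 ± 0.66 SE, edgeR adjusted p 5.83e-11). The intracellular inhibitor NKD1 fell from 156, 136, 143, 176 and 229 CPM to 6.97, 8.86 and 12.1 CPM (log2 fold change −4.36 ± 0.35 SE, edgeR adjusted p 4.88e-13). SP5, a direct target whose promoter letters are shown above, had 117, 55.7, 66.3, 28.7 and 76.5 CPM at day 1.5 and 0, 5.27 and 11.4 CPM at day 2.5 (log2 fold change −3.80 ± 0.48 SE, edgeR adjusted p 6.16e-08). AXIN2, the usual readout of the pathway, fell less, by 1.73 (edgeR adjusted p 0.00366). Its block A libraries were low on both days, with 12.9, 5.42, 36.0, 47.7 and 61.5 CPM and 4.04, 12.3 and 20.9 CPM over the libraries of the days, so the days overlapped, while without block A the log2 fold change was −1.84 (edgeR adjusted p 3.54e-06, range over its alternatives 3.54e-06 to 0.152). RSPO3, a secreted amplifier of WNT signals, fell by 4.03, and APCDD1, a membrane inhibitor, by 3.25 (edgeR adjusted p 9.16e-07 and 1.41e-05). The DNA-binding partners of beta-catenin moved apart. TCF7 fell from 65.2, 67.7, 119, 130.2 and 139 CPM to 16.9, 25.2 and 28.0 CPM, and LEF1 rose from 10.9, 8.73, 25.1, 29.2 and 32 CPM to 55.2, 109 and 161 CPM. The log2 fold changes were −2.33 ± 0.22 for TCF7 and 2.25 ± 0.32 for LEF1 (SE, edgeR adjusted p 5.92e-11 and 4.03e-07), and in both genes no library of one day reached those of the other. The secreted antagonists SFRP5 and SFRP1 were higher at day 2.5. SFRP5 was at 3 counts or fewer in each day 1.5 library and had 32.1, 50.6 and 78.4 CPM at day 2.5, at least 42.1-fold higher, and SFRP1 rose by 2.66 (edgeR adjusted p 2.37e-12).

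The WNT ligands and their secretion factor were listed apart, since C59 acts on secretion. Of 9 tested members of 22, 2 were called lower and 2 higher (median −0.91), and 11 of the 22 had at most 3 counts in every library. WNT3, a ligand of the streak, fell from 22.4, 23.5, 60.6, 43.1 and 52.2 CPM to 2.47, 10.8 and 20.9 CPM (log2 fold change −1.97 ± 0.44 SE, edgeR adjusted p 0.000624). WNT5A, which signals mainly without beta-catenin, fell by 1.25 (edgeR adjusted p 2.64e-05), with WT_TU_R1 the lowest library of both days. WLS, the carrier that brings WNT proteins to the cell surface, rose from 48.4, 67.1, 85.1, 72.8 and 89.4 CPM to 181, 221 and 295 CPM (log2 fold change 1.48 ± 0.16 SE, edgeR adjusted p 2.83e-09).

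BMP4 was in the medium of both days, and BMP pathway genes rose more often than they fell. Of 22 tested members of 25, 9 were called higher and 3 lower (median 0.57). Among ligands, BMP2 fell from 217, 218, 213, 181 and 244 CPM to 57.1, 86.7 and 98.1 CPM (log2 fold change −1.60 ± 0.20 SE, edgeR adjusted p 5.77e-08). BMP5, a ligand of the early heart, had no count at day 1.5 and 24.4, 39.0 and 50.0 CPM at day 2.5, at least 28.9-fold higher. The cells' own BMP4 did not pass, with 578 ± 91.1 CPM at day 1.5 (SD, n = 5) and 626 ± 135 CPM at day 2.5 (SD, n = 6, edgeR adjusted p 0.852). Extracellular modulators split. BMPER rose from 21.8, 18.4, 17.8, 15.4 and 25.3 CPM to 136, 152 and 176 CPM and the antagonist CHRD by 4.14. edgeR adjusted p was 7.34e-15 for BMPER and 4.06e-08 for CHRD. The antagonist NOG (noggin) fell by 1.78 (edgeR adjusted p 0.0125, range over its alternatives 0.00130 to 0.202), a call that was lost without TNT2 at day 1.5, the library with the highest level (edgeR adjusted p 0.0944). The ID genes are direct SMAD targets that block differentiation factors. ID4 rose by 2.99 and ID2 by 1.68 (edgeR adjusted p 2.91e-11 and 0.00122), while ID1 and ID3 did not pass. ID1 had 91.6 ± 33.1 CPM and 158 ± 43.9 CPM (SD, n = 5 and 6, edgeR adjusted p 0.155), and with the library name as a block its edgeR adjusted p was 0.0199. ID3 had 328 ± 210.1 CPM and 628 ± 215 CPM (SD, n = 5 and 6, edgeR adjusted p 0.292), with block A highest on both days. The inhibitory SMAD6 rose from 121, 86.1, 72.1, 60.0 and 68.7 CPM to 153, 199 and 259 CPM (edgeR adjusted p 0.000163). MSX1 and MSX2 are related homeobox targets that moved apart. MSX1 fell from 201, 93.0, 234, 308 and 346 CPM to 17.0, 48.2 and 71.3 CPM and MSX2 rose from 23.5, 22.0, 26.1, 37.9 and 39.3 CPM to 55.8, 79.8 and 94.9 CPM. Their log2 fold changes were −2.55 ± 0.35 and 1.20 ± 0.28 (SE, edgeR adjusted p 2.46e-07 and 0.000882). In the 3 untreated day 2.5 libraries of the enzyme arm MSX1 had 56.7 to 100.4 CPM and MSX2 36.4 to 77.8 CPM. Both overlapped their day 1.5 ranges.

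**Figure D3:**
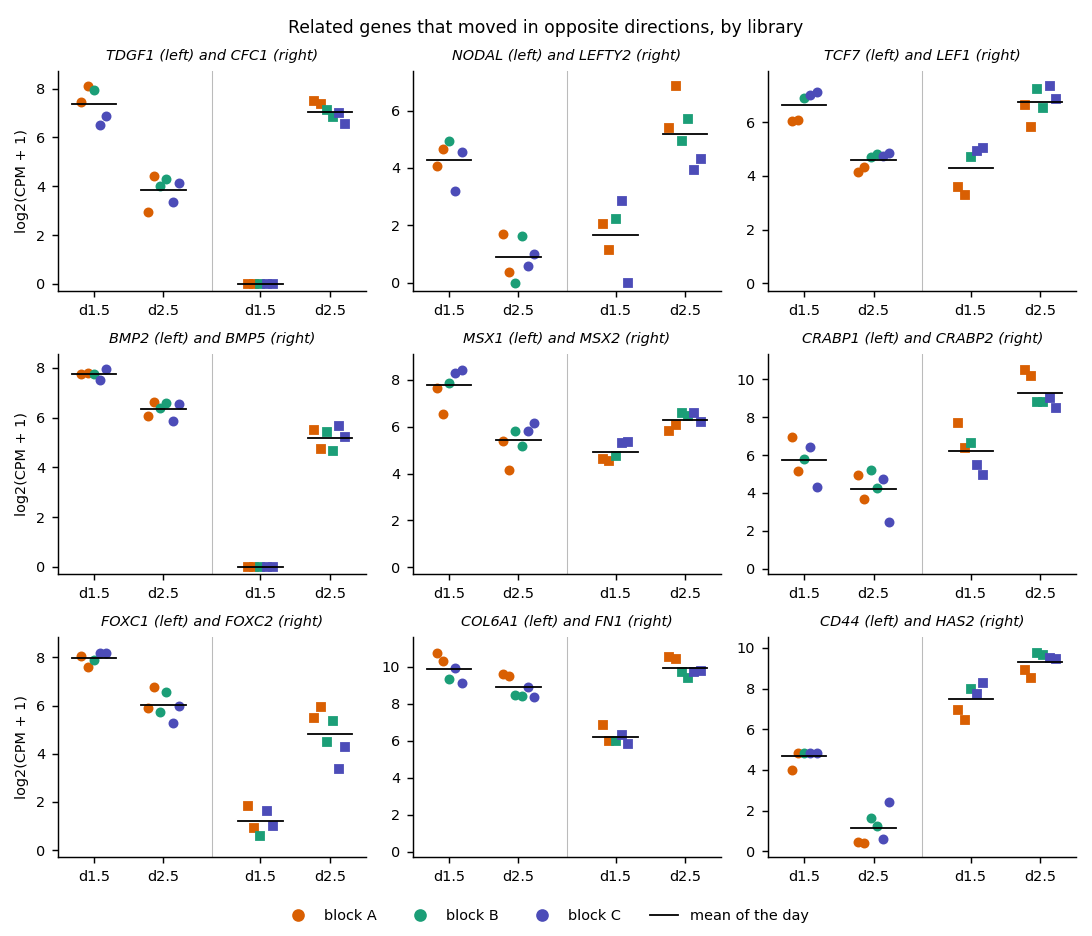
Log2(CPM + 1) of 9 pairs of related genes in each WT library, left gene as circles and right gene as squares, coloured by block of library numbers, with the mean of each day as a bar. In every pair the left gene was called lower and the right gene higher at day 2.5, and the libraries of the days overlap only in CRABP1 and COL6A1.

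FGF2-G3 was in both media, at a lower dose after day 1.5 per the labels. Of 22 tested FGF and ERK feedback genes of 25, 8 were called lower and 4 higher (median −0.44, or −0.17 with members at the floor set to their bound). The ligand FGF17 fell from 120.3, 138, 103, 79.4 and 83.2 CPM to 0.492, 2.63 and 4.99 CPM (log2 fold change −5.68 ± 0.46 SE, edgeR adjusted p 1.36e-11), while FGF10, a ligand of the heart field, rose from 3 counts or fewer in each day 1.5 library to 4.01, 18.3 and 27.0 CPM. ETV4, a transcription factor that reports ERK activity, fell from 113, 93.6, 42.8, 53.3 and 66.1 CPM to 2.09, 8.97 and 12.5 CPM (log2 fold change −3.34 ± 0.35 SE, edgeR adjusted p 5.07e-10). The feedback inhibitors IL17RD, SPRY1 and DUSP4 fell by 1.76, 2.10 and 1.79 (edgeR adjusted p 5.59e-10, 0.000256 and 0.00124). In the 3 untreated day 2.5 libraries of the enzyme arm SPRY1 had 26.9 to 34.0 CPM. These values lie inside its day 1.5 range of 25.9 to 55.8 CPM, while IL17RD and DUSP4 lay below their day 1.5 ranges there. Other feedback inhibitors did not pass the test. DUSP6 had 255 ± 124 CPM and 345 ± 129.6 CPM (SD, n = 5 and 6) and SPRY2 32.3 ± 6.28 CPM and 29.5 ± 9.50 CPM (edgeR adjusted p 0.674 and 0.318). SPRY4 missed the threshold (edgeR adjusted p 0.0525) with 19.6, 9.63, 112, 132 and 109 CPM and then 2.78, 35.6 and 52.0 CPM. Its block A libraries were the lowest of both days, and with the library name as a block its edgeR adjusted p was 5.55e-07, with a log2 fold change of −1.77. 3 FGF receptors rose: FGFR2 by 1.62, FGFR3 by 1.38 and FGFR1 by 0.94 (edgeR adjusted p 3.97e-05, 6.54e-06 and 7.36e-06).

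Immediate-early genes, which growth factors and handling of cells switch on within minutes, were lower at day 2.5. Of 14 tested members of 18, 10 were called lower and none higher (median −1.61); 7 were called lower with library totals and 8 without block A. Their summed level was 2868 to 4749 CPM at day 1.5 and 417 to 598 CPM at day 2.5, most of it IER3. IER3, a stress-responsive survival gene, had 3722, 4004, 2101, 2566 and 2319 CPM at day 1.5 and 52.3, 61.2 and 84.6 CPM at day 2.5 (log2 fold change −5.75 ± 0.35 SE, edgeR adjusted p 4.37e-16). FOS fell by 3.62 (edgeR adjusted p 1.95e-07) and EGR1 from 51.8, 28.0, 87.2, 141 and 92.5 CPM to 8.67, 16.3 and 27.1 CPM (edgeR adjusted p 1.52e-05). Per block, the mean log2 CPM of EGR1 changed by −0.80 in A, −2.87 in B and −3.30 in C. The 3 untreated day 2.5 libraries of the enzyme arm had 101 to 149 CPM of EGR1, above all 6 WT libraries of that day, and 5.62 to 9.84 CPM of FOS. The part of handling in the change was not tested. Cyclin D1 fell in the same step: CCND1 had 174, 132, 254, 281 and 201 CPM and then 30.1, 43.3 and 63.7 CPM (log2 fold change −2.46 ± 0.35 SE, edgeR adjusted p 5.89e-07). Of 8 tested cyclin D and CDK inhibitor genes of 10, 2 were called lower and 1 higher (median 0.30). The count called higher is close to the share over all genes (15.0%). It was 3 with library totals and 2 with the library name as a block. The CDK inhibitor CDKN1C rose by 2.18 (edgeR adjusted p 9.94e-07). Of 28 mitosis and replication genes 5 were called lower, close to the share over all genes (15.1%), and none higher (median −0.22); 2 were called lower with library totals, 10 without block A and 8 with the library name as a block. MKI67, the proliferation marker Ki-67, had 523 ± 314 CPM and 541 ± 244 CPM (SD, n = 5 and 6, edgeR adjusted p 0.862). Its block A libraries were the lowest of both days, with 178 and 182 CPM and then 221 and 239 CPM. RRM2, a subunit of the enzyme that makes DNA precursors, fell by 1.33 (edgeR adjusted p 0.00251).

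Retinoic acid was added only after day 1.5, and receptor, enzyme and carrier genes of its pathway changed in the step. Of 20 tested pathway members of 23, 9 were called higher and 2 lower (median 0.57, or 0.44 with members at the floor set to their bound), against 1 lower without block A. Their summed level rose from 232 to 693 CPM over the day 1.5 libraries to 1115 to 2289 CPM. RARB (ENSG00000077092, chromosome 3, 25174332 to 25597932), a receptor that retinoic acid is known to induce through the repeat shown above, had no count in any day 1.5 library. At day 2.5 it had 5.86, 11.6 and 19.5 CPM, at least 9.65-fold higher (edgeR adjusted p 5.07e-10). DHRS3, which returns retinal to retinol and so limits the signal, rose from 0.559, 2.71, 0.522, 0 and 1.03 CPM to 48.2, 76.8 and 157 CPM (log2 fold change 6.01 ± 0.47 SE, edgeR adjusted p 3.91e-13). CRABP2, the carrier that brings retinoic acid to its receptor, rose from 209, 82.2, 98.2, 44.1 and 30.0 CPM to 361, 483 and 1465 CPM (log2 fold change 2.74 ± 0.54 SE, edgeR adjusted p 0.000125). Its 3 untreated day 2.5 libraries held 41.5 to 239 CPM, below all 6 WT libraries of that day. The related carrier CRABP1 fell by 1.83 (edgeR adjusted p 0.00592), with the days overlapping, and it missed the threshold without block A (edgeR adjusted p 0.0971, range over its alternatives 3.38e-06 to 0.446). CYP26A1 (ENSG00000095596, chromosome 10, 93073475 to 93077890), the enzyme that degrades retinoic acid, carries the same kind of repeat as RARB and moved the other way. It had 88.7, 102, 44.4, 19 and 18.1 CPM at day 1.5 and 9.77, 13.5 and 24.4 CPM at day 2.5 (log2 fold change −2.11 ± 0.46 SE, edgeR adjusted p 0.000441). Block A was high at day 1.5, and without it the fall was 1.31 (edgeR adjusted p 0.0102, range over its alternatives 3.71e-06 to 0.276). STRA6, the retinol uptake receptor, rose by 1.98. ALDH1A2, the enzyme that makes retinoic acid in the embryo, was near the floor, with 0.492, 1.95 and 5.61 CPM at day 2.5.

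The homeobox cofactors MEIS1 and MEIS2 were among the strongest rises of this list. MEIS1 rose from 0.839, 2.11, 5.22, 1.54 and 3.62 CPM to 91.6, 116 and 162 CPM, and MEIS2 from 2.24, 0, 1.04, 8.2 and 5.17 CPM to 79.0, 236 and 328 CPM. Their log2 fold changes were 5.36 ± 0.32 and 5.93 ± 0.52 (SE, edgeR adjusted p 1.26e-16 and 6.72e-12). All 6 of the 39 HOX genes that passed the filter on low counts were called higher, and 27 of the 39 had at most 3 counts in every library. A gene that passed this filter only through its day 2.5 level had to differ, so the count of 6 and the median of 4.95 (3.27 with the 4 members at the floor set to their bound) are descriptions. HOXB2 to HOXB6, from the anterior end of their cluster, are among them. HOXB3 had at most 3 counts in each day 1.5 library and 10.8, 17.7 and 38.2 CPM at day 2.5, at least 16.4-fold higher. HOXB2 and HOXB5 rose from the same floor to 7.37, 15.7 and 38.9 CPM and 8.38, 31.1 and 55.1 CPM, at least 14.5-fold and 25.2-fold higher. HOXB4 reached 3.39, 8.46 and 12.8 CPM and HOXB6 2.16, 9.96 and 18.7 CPM. HOXB3 overlaps HOXB4, HOXB5 and HOXB6 on its strand, so reads of these genes are uncertain.

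Most cardiac transcription factors were higher at day 2.5. Of 19 tested members of 22, 12 were called higher and 2 lower (median 2.19, also with the 4 members at the floor set to their bound). These 4 members passed the filter on low counts only through groups where they are higher, so the count and the median are descriptions. TBX5 (ENSG00000089225, chromosome 12, 114353931 to 114408442), the factor of the left ventricle and first heart field, had no count at day 1.5 and 10.5, 26.8 and 65 CPM at day 2.5, at least 23.6-fold higher (edgeR adjusted p 4.49e-11). HAND2 rose from at most 3 counts per library to 45.4, 98.6 and 126 CPM and TBX2 to 21.0, 29.8 and 38.2 CPM, at least 72.8-fold and 23.3-fold higher. HAND1, the left-ventricular relative of HAND2, was already present. It rose from 300.4, 178, 76.2, 91.7 and 113 CPM to 339.7, 476 and 1150.0 CPM, with block A highest on both days (log2 fold change 1.75 ± 0.34 SE, edgeR adjusted p 8.82e-05). MYOCD, the coactivator of serum response factor in muscle, rose from 0.559, 2.41, 8.35, 3.08 and 21.7 CPM to 42.0, 241 and 446 CPM (log2 fold change 4.90 ± 0.61 SE, edgeR adjusted p 4.1e-08). ISL1, a factor of heart progenitors, rose from 3.64, 4.21, 5.74, 5.64 and 4.65 CPM to 84.8, 101 and 116 CPM with little spread (log2 fold change 4.21 ± 0.45 SE, edgeR adjusted p 9.61e-10). MEF2C rose from at most 3 counts per library to 6.48, 23.8 and 25.5 CPM, at least 14.6-fold. The GATA factors split. GATA5 rose by 3.56 and GATA6 fell by 1.09 (edgeR adjusted p 2.3e-08 and 1.44e-05). GATA4 had 87.2 ± 44.2 CPM and 146 ± 64.7 CPM (SD, n = 5 and 6, edgeR adjusted p 0.260), and it passed with the library name as a block (edgeR adjusted p 0.00147, log2 fold change 0.66). Its block A libraries were the highest of both days. NKX2-5, the classical cardiac homeobox factor, did not pass. It had 86.7, 77.3, 9.40, 18.5 and 16.0 CPM at day 1.5 and 19.5, 36.8 and 179.9 CPM at day 2.5, with block A the highest at day 1.5 and WT_R1 far above the rest at day 2.5 (edgeR adjusted p 0.724). FOXC1 fell from 265, 192, 238, 294 and 287 CPM to 38.2, 60.2 and 108 CPM while FOXC2, its relative in paraxial and second heart field mesoderm, rose from 2.52, 0.903, 0.522, 2.05 and 1.03 CPM to 9.18, 30.6 and 61.1 CPM. The log2 fold changes were −2.09 ± 0.28 and 4.20 ± 0.56 (SE, edgeR adjusted p 1.36e-07 and 1.44e-07).

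Sarcomere genes did not start together. Of 20 tested members of 22, 11 were called higher and 1 lower (median 2.08, or 1.64 with members at the floor set to their bound), against 8 higher and none lower without block A. TTN, which encodes the giant spring titin, rose from 1.12, 0.602, 24.0, 17.9 and 36.2 CPM to 218, 2208 and 2637 CPM (log2 fold change 6.62 ± 0.81 SE, edgeR adjusted p 2.62e-08). Both block A libraries were about an order of magnitude below the others on each day, and the log2 fold change without them was 6.39 (edgeR adjusted p 2.12e-13, range over its alternatives 9.32e-21 to 0.000741). NEBL, a thin filament anchor of the nebulin family, rose from 1.4, 3.61, 7.31, 5.64 and 14.5 CPM to 118, 261 and 347 CPM (log2 fold change 5.10 ± 0.41 SE, edgeR adjusted p 5.24e-13). MYL4, the atrial and embryonic light chain, rose from 0.559, 1.5, 1.04, 0 and 2.58 CPM to 25.3, 67.8 and 102 CPM, and MYL7 by 2.19 (edgeR adjusted p 2.07e-11 and 0.000220). TNNI1, slow skeletal troponin I, had no count at day 1.5 and 13.3, 19.7 and 47.4 CPM at day 2.5, with WT_R1 above the rest. The genes by which cardiomyocytes are usually recognised had few reads. TNNT2, cardiac troponin T, had 0.308, 3.18 and 9.34 CPM at day 2.5 and MYH6, the alpha heavy chain, 0, 2.85 and 8.67 CPM. Both passed in the joint fit (edgeR adjusted p 0.0126 and 0.00284) and neither did without block A (edgeR adjusted p 0.0921 and 0.0655). TNNT2 also missed the threshold without WT_R1 at day 1.5 or without TNT2 at day 2.5. Their edgeR adjusted p ranged from 0.00170 to 0.157 and from 0.000307 to 0.0655 over their alternatives. MYH7, ACTN2, MYL2, PLN and CASQ2 had at most 3 counts in every library of both days.

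**Figure D4:**
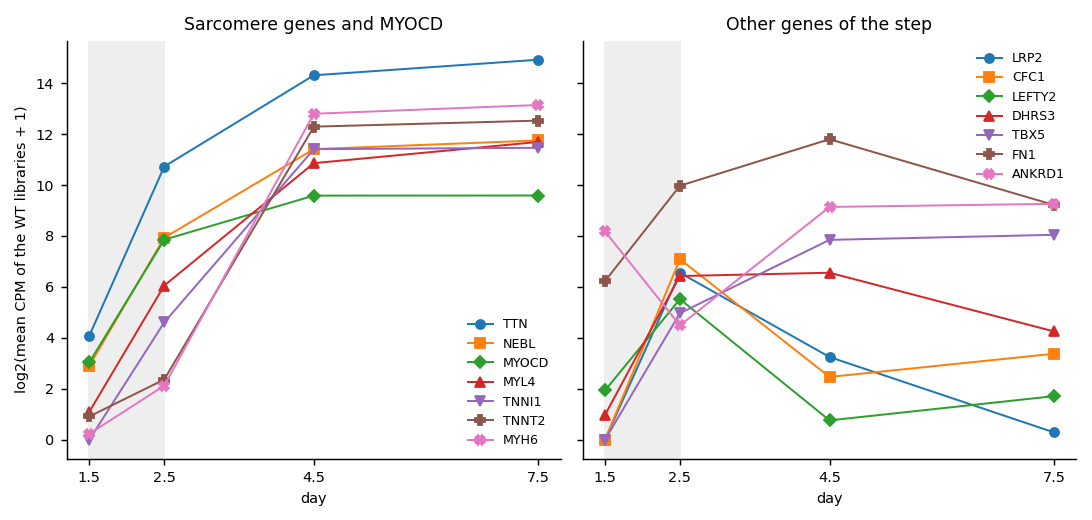
Log2(mean CPM + 1) over the WT libraries of days 1.5, 2.5, 4.5 and 7.5 (5, 6, 6 and 3 libraries) for sarcomere genes and MYOCD (left) and 7 other genes of the step (right), with the step shaded. TTN, NEBL and MYOCD rise inside the shaded step and again by day 4.5. TNNT2 and MYH6 stay under 5 CPM on average until day 2.5, while CFC1, LRP2 and LEFTY2 peak at day 2.5.

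The later WT days place these levels. TTN reached 20339 ± 13872 CPM at day 4.5 (SD, n = 6), NEBL 2721 ± 1139 CPM and TNNT2 5021 ± 1115 CPM. MYH6 reached 7132 ± 1448 CPM. Levels of 3 genes that rose in the step were lower again at day 4.5. CFC1 had 4.50 ± 2.84 CPM, LEFTY2 0.685 ± 0.792 CPM and LRP2 8.47 ± 3.59 CPM at that day, where CFC1 and LRP2 had no count at day 1.5. ANKRD1, a stretch-responsive gene of muscle and a YAP target, did the reverse. It fell from 109.9, 157, 445, 253 and 472 CPM to 4.77, 18.2 and 56.0 CPM in the step (edgeR adjusted p 4.87e-08) and stood at 563 ± 264 CPM at day 4.5. These later levels share the day 2.5 libraries with the step and are given as values only.

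HAS2, the gene that the series targets, had 122, 87.0, 251, 215 and 309.6 CPM at day 1.5. At day 2.5 it had 369.9, 716 and 869 CPM, so each day 2.5 library lay above all day 1.5 libraries, and block A was the lowest on both days. Per block, the mean log2 CPM rose by 1.75 in A, 1.57 in B and 1.32 in C. Of 10 tested hyaluronan genes of 18, 4 were called higher and 1 lower (median 0.60). HAPLN1 and HAPLN3, link proteins that tie hyaluronan to proteoglycans, rose by 1.47 and 2.07 (edgeR adjusted p 0.000574 and 0.000199). The receptor CD44 fell from 15.1, 27.1, 27.2, 27.2 and 27.9 CPM to 0.308, 0.953 and 4.42 CPM (log2 fold change −4.27 ± 0.51 SE, edgeR adjusted p 1.47e-08). The proteoglycan VCAN had 332 ± 184 CPM and 566 ± 215 CPM (SD, n = 5 and 6, edgeR adjusted p 0.134), with block A lowest on both days. With the library name as a block VCAN passed (edgeR adjusted p 0.0146, log2 fold change 0.57).

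Of 26 tested other matrix genes of 28, 9 were called higher and 3 lower (median 0.32, or 0.27 with members at the floor set to their bound). The count called lower is near the share over all genes (15.1%). With library totals 13 were called higher, and without block A 5 were called lower. Fibronectin, FN1, rose from 113, 61.7, 62.1, 77.9 and 55.3 CPM to 662, 846 and 1466 CPM (log2 fold change 3.54 ± 0.28 SE, edgeR adjusted p 3.31e-13). The basement membrane genes LAMA1, COL4A6 and NID2 rose as well, LAMA1 by 2.65 and COL4A6 by 2.78 (edgeR adjusted p 3.55e-08 and 4.42e-07). NID2 rose from at most 3 counts per library to 6.79, 23.3 and 42.8 CPM, at least 17.8-fold. COL6A1, a microfibrillar collagen, fell from 1722, 1275, 644, 972 and 554 CPM to 329.8, 415 and 784 CPM (log2 fold change −1.27 ± 0.29 SE, edgeR adjusted p 0.000781), with block A highest on both days. Of 18 tested adhesion and epithelial-mesenchymal transition genes of 23, 5 were called lower and 3 higher (median −0.35). The count called higher is close to the share over all genes (15.0%), and it was 5 with the library name as a block. E-cadherin, CDH1, fell from 26.3, 13.5, 21.4, 13.3 and 9.82 CPM to 1.53, 3.23 and 5.58 CPM and N-cadherin, CDH2, from 346, 427, 584, 598 and 651 CPM to 116, 197 and 287 CPM. Their log2 fold changes were −2.53 ± 0.55 and −1.62 ± 0.20 (SE, edgeR adjusted p 0.000474 and 2.91e-08). The tight junction claudins CLDN6 and CLDN7 fell by 2.27 and 2.16 (edgeR adjusted p 0.00335 and 0.000687). CRB2, a protein of the apical membrane that gastrulating cells need to leave the epithelium, was unread in every day 1.5 library. At day 2.5 the CRB2 level was 115, 167 and 286 CPM, with WT_R1 the highest. It overlaps DENND1A on the other strand, so its count is uncertain. SNAI2 and vimentin, VIM, rose by 2.02 and 1.01 (edgeR adjusted p 0.000544 and 0.000551). In the 3 untreated day 2.5 libraries of the enzyme arm SNAI2 had 11.2 to 32.2 CPM. These values overlap its day 1.5 range of 3.01 to 14.9 CPM, while VIM lay above its day 1.5 range there.

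Pluripotency genes split between those that fell and those that did not pass. Of 12 tested members of 17, 6 were called lower and 1 higher (median −0.70). NANOG fell from 7.83, 9.33, 9.92, 12.8 and 15.5 CPM to a single read over the 6 day 2.5 libraries, at least 7.18-fold. POU5F1, with near-identical pseudogenes, fell from 467, 346, 204, 234 and 188 CPM to 34.2, 41.6 and 73.7 CPM (log2 fold change −2.82 ± 0.32 SE, edgeR adjusted p 4.04e-09). L1TD1, an RNA-binding protein of stem cells, fell from 538, 544, 1609, 1269.5 and 1537 CPM to 73.7, 201 and 253 CPM, with block A lowest on both days. LIN28A had 573 ± 214 CPM and 709 ± 184 CPM, and SALL4 210.0 ± 101 CPM and 278 ± 84.0 CPM (SD, n = 5 and 6, edgeR adjusted p 0.835 and 0.624). On both days block A was highest for LIN28A and lowest for SALL4. SOX2 was low at both days, with 3.08, 2.11, 0.522, 6.15 and 3.10 CPM and then 0.492, 2.17 and 9.56 CPM. Among 14 tested NOTCH and segmentation genes of 19, 4 were called lower and 2 higher (median −0.14). The count called higher is close to the share over all genes (15.0%), and it was 4 with the library name as a block. The ligand JAG1 rose from 2.24, 2.41, 2.09, 4.61 and 4.65 CPM to 61.3, 107 and 157 CPM and the target HEY1 from 0.559, 0.602, 2.61, 0 and 0.517 CPM to 11.2, 26.5 and 65.7 CPM. DLL3, a ligand of the presomitic mesoderm, fell by 2.63 (edgeR adjusted p 1.17e-13, 1.06e-08 and 2.64e-08 for these 3 genes).

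Genes of glycolysis and hypoxia were lower more often than higher, at 9 against 3 of 22 tested members of 24 (median −0.55). The count called higher is near the share over all genes (15.0%), and it was 4 with library totals and 2 without block A. The members named next were all called lower, so they do not stand for the whole list. BNIP3, a mitophagy receptor, fell from 205, 99.0, 156, 154 and 123 CPM to 39.5, 42.1 and 44.2 CPM, values that lie within a narrow range at day 2.5 (log2 fold change −2.02 ± 0.31 SE, edgeR adjusted p 2.53e-06). Hexokinase HK1 fell by 1.48 and enolase ENO1 by 1.05 (edgeR adjusted p 7.49e-08 and 0.000590). Lactate dehydrogenase LDHA fell by 1.56 (edgeR adjusted p 0.00310), with WT_TU_R1 the highest at day 2.5. Of 22 tested sterol synthesis genes of 23, 8 were called higher and 1 lower (median 0.44), and 12 higher with library totals or without block A. SC5D, a late enzyme of cholesterol synthesis, rose from 44.5, 55.4, 39.2, 26.7 and 46.0 CPM to 227, 271 and 369 CPM (log2 fold change 2.52 ± 0.27 SE, edgeR adjusted p 8.32e-10). The PI3K inhibitor was removed and insulin added in this step, and of 15 tested FOXO and insulin-response genes of 16, 2 were called higher and 3 lower, near the shares over all genes (15.0% and 15.1%, median 0.52, or 0.43 with members at the floor set to their bound). With library totals 7 were called higher and 2 lower, and without block A 4 and 3. With the library name as a block 5 were called higher. SESN3 and CCNG2, both known FOXO targets, were the members called higher, by 2.10 and 1.52 (edgeR adjusted p 3.96e-07 and 0.00704). CCNG2 had 12.6, 7.82, 5.74, 3.08 and 6.2 CPM at day 1.5 and 20.2, 23.9 and 29.6 CPM at day 2.5, and 6.73 to 9.70 CPM in the untreated day 2.5 libraries of the enzyme arm. Of 20 tested YAP and SRF targets of 22, 3 were called lower and 3 higher, close to the shares over all genes (15.1% and 15.0%, median 0.15, or 0.06 with members at the floor set to their bound), and 5 higher with library totals or with the library name as a block. TAGLN, an actin-binding SRF target, fell from 547, 682, 408, 201 and 325 CPM to 57.8, 67.8 and 109.6 CPM (log2 fold change −2.76 ± 0.31 SE, edgeR adjusted p 3.21e-09), and AXL, a receptor kinase, rose by 1.82 (edgeR adjusted p 7.89e-07).

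Markers of other lineages were read beside the cardiac label. Of 12 tested endoderm markers of 16, 4 were called higher and 3 lower, with a summed level of 103 to 272 CPM at day 1.5 and 142 to 324 CPM at day 2.5, and AFP, APOA2, TTR, RBP4 and CLDN18 at the floor. With library totals 1 was called lower. HHEX, an early endoderm factor, fell by 2.4 (edgeR adjusted p 4.42e-05). Of 11 tested ectoderm markers of 18, 3 were called higher and 4 lower, and PAX6, SOX1, PAX3, TFAP2B, TP63 and DLX5 were at the floor. The keratins KRT8 and KRT18, which early mesoderm also expresses and whose genes overlap, made up most of the summed level of 1348 to 1827 CPM at day 1.5 and 1859 to 3714 CPM at day 2.5. OTX2 and ZIC2, anterior factors of epiblast and neural cells, fell from 223, 247, 215, 193 and 216 CPM to 32.1, 37.9 and 70.0 CPM and from 472, 468, 255, 216 and 216 CPM to 13.8, 36.3 and 42.8 CPM (edgeR adjusted p 4.03e-12 and 1.41e-08). Of 8 tested amnion and trophoblast markers of 15, 6 were called higher and none lower, with 162 to 369 CPM in sum at day 1.5 and 812 to 1622 CPM at day 2.5. Several of these 15 are shared with heart mesoderm (HAND1, ISL1, GATA2, GATA3 and HEY1), and VTCN1, WNT6, CGA and XAGE2 were at the floor. GATA3, a target of BMP signals, rose from 49.8, 27.1, 55.9, 46.1 and 53.7 CPM to 223, 258 and 326 CPM, and GATA2 from 3.64, 2.71, 4.70, 7.69 and 0 CPM to 28.5, 49.5 and 66.8 CPM (edgeR adjusted p 1.39e-08 and 1.99e-07). Of 5 tested paraxial markers of 11, 2 were called higher (1 without block A) and 3 lower, with 267 to 428 CPM in sum at day 1.5 and 53.0 to 208 CPM at day 2.5, and MSGN1, MEOX1, MEOX2, PAX3, MYF5 and PAX1 at the floor. TBX6 fell by 3.27 (edgeR adjusted p 2.28e-06). Of 8 tested endothelial and blood markers of 16, 2 were called higher and 1 lower, with 98.1 to 232 CPM in sum at day 1.5 and 197 to 672 CPM at day 2.5, and TAL1, CDH5 and GATA1 at the floor. KDR, which cardiac mesoderm shares with endothelium, rose from 21.0, 25.9, 58.5, 80.5 and 41.9 CPM to 60.5, 204 and 309 CPM (edgeR adjusted p 0.000217), and RUNX1 fell to a few reads (edgeR adjusted p 2.98e-05). Of 2 tested epicardial markers of 7, 1 was called higher and none without block A, with at most 6.62 CPM in sum at day 1.5 and 14.3 CPM at day 2.5. The part of such cells in the results was not tested.

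The remaining genes with the largest changes belong to none of the lists. LRP2 (megalin), an endocytic receptor that heart and brain precursors use, had no count at day 1.5 and 41, 101 and 124 CPM at day 2.5. SLC40A1 (ferroportin), the iron exporter, went from no count to 31.2, 73.4 and 119.8 CPM. ASXL3, a chromatin factor, went from none to 14.8, 30.0 and 51.5 CPM, FYB2 to 10.5, 41.8 and 55.1 CPM and PGA5, which has near-identical copies, to 10.5, 35.0 and 55.8 CPM. The folds are at least 72.6 for LRP2, 57.4 for SLC40A1, 28.9 for FYB2, 27.0 for PGA5 and 24.5 for ASXL3. The imprinted RNA H19 was also unread at day 1.5, and its day 2.5 levels split by block. It had 0.617, 76.0 and 139 CPM over the 6 libraries, with both block A libraries (5.14 and 0.617 CPM) far below the others, and still passed without them (edgeR adjusted p 2.3e-12, range over its alternatives 2.3e-12 to 0.00707). Among falling genes, the guidance cue NTN1 had 99.3, 64.1, 49.6, 35.4 and 28.4 CPM at day 1.5 and no count at day 2.5. NPPB, the B-type natriuretic peptide, had 21.3, 52.1, 28.2, 3.08 and 10.9 CPM and then no count. The lymphocyte receptor gene CD48 had 28.5, 43.3, 38.1, 31.3 and 42.9 CPM at day 1.5 and a single read at day 2.5, and RFPL2 fell from 62.9, 47.9, 35.5, 13.3 and 15.5 CPM to 0, 0 and 1.1 CPM. These falls are at least 35.9-fold for NTN1, 23.9-fold for CD48, 22.7-fold for RFPL2 and 15.0-fold for NPPB.

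Day 2.5 was also measured in the 3 untreated libraries of the enzyme arm, which have no day 1.5 of their own. Their titles carry the names TNNI1, WT and TNNT2, and their library numbers form a block apart from A, B and C. Differences between them and the 6 WT libraries of day 2.5 can therefore not be told apart from line or block. Of the 4153 called genes, 2358 (56.8%) had all 3 untreated libraries beyond the day 1.5 range on the same side. The share was 26.3% over all genes tested and 77.0% (1576) over the 2047 called genes without overlap between the WT days. Both sets of day 2.5 libraries were set against the same day 1.5 libraries, so these counts are descriptions.

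The same step was measured in clones labelled HAS2 knockout, with 6 libraries at each day. These were cl4_R1, cl4_R2, cl4_R3, cl14_R1, cl46_R1 and cl51_R1 at both days. Clone cl4 was thus read more than once and the other clones were not, and the main fit treated all 6 alike. The label is not visible in the counts of HAS2 itself, which were 93.9 to 301 CPM at day 1.5 and 442 to 913 CPM at day 2.5 in these libraries (lowest and highest of 6), and 3′ reads do not show whether a transcript codes for protein. In the KO step 4600 genes (33.3%) were called. Of the 4153 WT genes, 4077 (98.2%) moved in the same direction in KO, and 3224 were also called there, which is 77.6% of the WT calls and 70.1% of the KO calls. Across all 13797 genes, which are not independent replicates, Pearson's r between the 2 log2 fold changes was 0.859. WT and KO libraries share blocks of library numbers, and 3 genes were called in opposite directions. The difference between the steps passed edgeR's test for 11 genes (0.0797%), with 650 at an unadjusted p under 0.05. DESeq2 called 31, and with the library name as a block 34 were called.

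**Figure D5:**
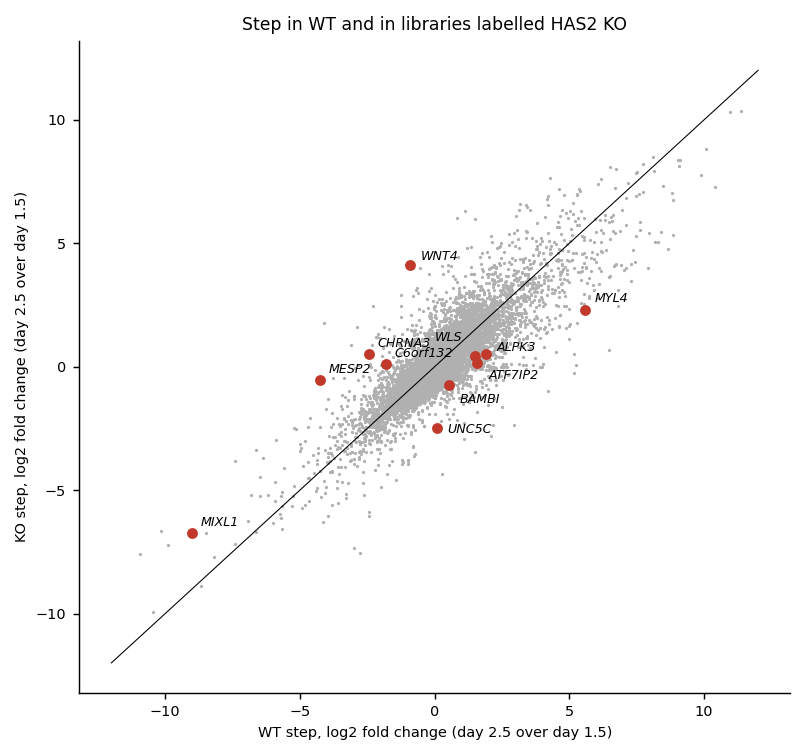
Log2 fold change from day 1.5 to day 2.5 in WT (horizontal) and in libraries labelled HAS2 KO (vertical) for the 13797 genes tested, with the line of equality. The 11 red genes are those whose step differed at an edgeR adjusted p under 0.05.

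WNT4, a ligand that acts with or without beta-catenin, had the largest difference, with a KO minus WT log2 value of 5.03 ± 0.92 (SE, edgeR adjusted p 0.0191). WNT4 had 1.02, 1.90 and 2.79 CPM in WT at day 2.5 and 4.45 to 18.0 CPM in KO (lowest and highest of 6). At day 1.5 it had 0.903 to 5.17 CPM in WT and 0 to 1.11 CPM in KO. The difference therefore rests on both days, with the KO level at day 1.5 close to the floor. MESP2 fell by 4.27 in WT, and the difference was 3.71 ± 0.59 (SE, edgeR adjusted p 0.00259), which passed in all 31 alternatives. CHRNA3, a nicotinic receptor subunit that overlaps CHRNA5, fell in WT by 2.44 and differed by 2.96 ± 0.61 (SE, edgeR adjusted p 0.0383). MYL4 rose less in KO, with a difference of −3.28 ± 0.70 (SE, edgeR adjusted p 0.0463) that passed in 7 of 31 alternatives. UNC5C, a netrin receptor, did not pass in WT (log2 fold change 0.08 ± 0.35 SE) and differed by −2.56 ± 0.53 (SE, edgeR adjusted p 0.0398). ATF7IP2, a chromatin factor, differed by −1.43 ± 0.29 (SE, edgeR adjusted p 0.0383). Leaving out 1 of the 23 libraries in turn gave 3 to 20 calls, and in 16 of these 23 fits the count moved by more than 1.5 times. The extremes were 3 without KO cl4_R3 at day 1.5 and 20 without WT_TU_R1 at day 2.5.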

How the data were processed

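RNA was read from the 3′ end (QuantSeq FWD, single reads, per the labels' protocols). The deposited table holds whole-number read counts per Ensembl gene, made by the authors with featureCounts (Subread 1.6.2) on hg38 (GRCh38), per the submitters' processing notes. The aligner, annotation and strand setting are not given in the sources used here. All 58735 gene IDs occur in GENCODE 29, from which positions on GRCh38 were taken, and 4 columns of no listed sample were not used. CPM was computed as the count over the library total.

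Libraries were grouped by title. edgeR 4.0.16 (R 4.3.3) fitted 41 genotype-arm libraries of 8 groups after filterByExpr (minimum count 10), with TMM factors and robust quasi-likelihood, with Benjamini-Hochberg adjustment of p-values over 13797 genes. log2 CPM used a prior count of 2. A gene with at most 3 counts in every library of a group is at the floor, and folds against it are lower bounds from 3 counts per library, covering counting error only. Replicate pairs differed by 2.371 to 60.295 times counting error over 25 pairs (chi-square per degree of freedom).

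Library names denote the same lines at both days and so pair the libraries. Deviations of the 5 pairs from their group means correlated at 0.351 to 0.720, each best with its own name. The highest values, 0.720 and 0.704, were of the block A names WT_R1 and WT_TU_R1. Differences between blocks of library numbers were left in these deviations, and their part was not tested. The fit with the library name as a block is an alternative, as are other scalings, filters, sets of libraries, DESeq2 1.42.0 and a test against a log2 fold change of 1.

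Named genes are the 10 highest and 10 lowest changes with apart libraries and at least 20 CPM, up to 4 called members per list and direction, list members that did not pass, HAS2, the 3 highest and 3 lowest differences between KO and WT, and the most abundant genes. MALAT1 and other RNAs of the closing observations were chosen after their values were seen unless the rule names them. Some genes that the rule names are not reported here. The members and all 28 lists were chosen with earlier results of these data known, and alternatives without block A, without KO libraries and with library totals were added after seeing the data. The main fit was also run on simulated counts with known changes. Those counts had independent libraries, no pairing and no block effect, so they do not check p-values under the block differences seen here.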

Additional observations from a re-analysis of the deposited data

Results flagged for a closer look

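In groups of 5 or 6 libraries, 1 library lay far from the others for 18 of the named genes, WNT5A at both days. These are 19 of 328 groups, but groups with at most 3 counts in every library were skipped, so fewer than 328 were examined. Chance alone flags about 1 in 20 groups examined, and the share flagged was not compared with that. WT_TU_R1 at day 2.5 was low for MALAT1 (7391 CPM) and WNT5A (62.0 CPM). It was high for MESP2 (8.02 CPM), LEFTY2 (114 CPM), COL4A6 (32.4 CPM), LDHA (368 CPM), OTX2 (70.0 CPM) and TBX6 (21.6 CPM). WNT5A was also low in WT_TU_R1 at day 1.5, at 109.9 CPM.

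WT_R1 at day 2.5 was high for DHRS3 (157 CPM), NKX2-5 (179.9 CPM), TNNI1 (47.4 CPM) and CRB2 (286 CPM) and low for SNAI2 (18.0 CPM), and at day 1.5 it was low for CD44 (15.1 CPM). At day 1.5, cl43_WT_UT was high for GATA5 (11.8 CPM), WT_R2 for HEY1 (2.61 CPM), and TNT2 for RUNX1 (10.3 CPM) and NOG (19.1 CPM).

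The step differed between libraries labelled KO and WT libraries, by the test of the difference in edgeR, for 8 named genes. The KO minus WT difference in log2 fold change was 5.03 for WNT4, 3.71 for MESP2, 2.96 for CHRNA3 and 2.26 for MIXL1. It was −3.28 for MYL4, −2.56 for UNC5C, −1.43 for ATF7IP2 and −1.04 for WLS. MESP2 passed in all 31 alternatives and WNT4 in 30, MIXL1 in 20, CHRNA3, UNC5C and ATF7IP2 in 16 each, WLS in 9 and MYL4 in 7.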

How the results depend on the processing

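For the step, the 4153 called genes became 2736 with the compared groups alone and 1164 in a test against a log2 fold change of 1. The other alternatives gave 3546 to 5403 calls, among them 5319 with the replicate block of library names (4120 shared) and 4485 with DESeq2. Leaving out 1 library gave 3718 to 4093. Library totals without scaling factors raised the share of higher calls from 49.9% to 67.5%. For the difference between the KO and WT steps, the 11 called genes became 34 with the replicate block of paired library names, 28 with the block of library numbers as a term, 31 with DESeq2, 7 without a filter on low counts, 5 with the compared groups alone and 20 without block A. Leaving out 1 library in turn gave 3 to 20. The cause of these shifts was not tested, except that fewer libraries or genes entered some fits. The replicate block lost no call on a gene named in the text and added ID1, SPRY4, GATA4 and VCAN. No named gene that was called in the step changed direction, and 8 named genes that were not called (MKI67, SOX2, LIN28A, BMP4, UNC5C, DUSP6, NKX2-5 and SALL4) changed sign in some alternatives. The alternatives with library totals, without block A and without the KO libraries were chosen after seeing the data. Block B could not be fitted alone, because 1 of its libraries is of day 1.5. Depth limits genes of a few CPM, where 3 counts of the smallest library of day 2.5 correspond to 2.14 CPM.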

Other observations

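Genes of ribosome production were lower at day 2.5, a pattern outside the lists that was picked after the values were seen. Of 32 tested genes whose symbols begin with UTP, NOP, RRP or POLR1, which act in the nucleolus, 26 were called lower and none higher (median log2 fold change −1.09, and 22 lower with a median of −0.91 with library totals). DDX21, a nucleolar helicase, had 598, 669.6, 1476, 1315 and 1489 CPM in the day 1.5 libraries and 144, 251 and 314 CPM (lowest, median and highest) at day 2.5. Its log2 fold change was −2.46 ± 0.22 (SE, edgeR adjusted p 1.28e-11). RRP12 fell by 2.44 and NOP16 by 2.18 (edgeR adjusted p 3.57e-08 and 3.81e-07). Of 18 cytosolic aminoacyl-tRNA synthetases 12 were called lower and none higher (median −0.80). ODC1, the first enzyme of polyamine synthesis, fell by 2.35 (edgeR adjusted p 9.78e-09). Ribosomal proteins themselves moved less, with 22 of 82 called lower (median −0.30), 8 with library totals and 34 without block A.

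Several imprinted genes, which are read from 1 parental copy, also changed and were chosen after their values were seen. DLK1, a NOTCH-related membrane protein, rose from 1.96, 1.20, 0.522, 1.54 and 1.03 CPM to 33.5, 46.9 and 90.3 CPM (log2 fold change 5.09 ± 0.53 SE, edgeR adjusted p 5.32e-10). KCNQ1OT1, a long non-coding RNA, rose by 1.87 (edgeR adjusted p 4.45e-05). PHLDA2, a growth-restraining gene of the same chromosome, fell from 33.3, 14.7, 27.7, 33.3 and 7.24 CPM to 0, 0.554 and 2.04 CPM (log2 fold change −4.96 ± 0.69 SE, edgeR adjusted p 3.23e-07). H19 and CDKN1C of this chromosome rose, as given above.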
